A study of Mus musculus with 8 samples.

Results

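Interferon-stimulated genes (ISGs) are the antiviral and immune genes that cells switch on after an interferon signal. The 47 ISGs described here were taken from a list of gene symbols, matched by current symbol or synonym to the probes of a mouse expression array, and each gene was represented by its brightest probe. Of the 47, 46 had a probe and 45 were tested, among 16309 genes tested in all. Dtx3l was matched by no probe, and the probe of Oas1g was not well above background on any of the 8 arrays. The other 45 were well above background on all 8 arrays. The cells were c-Kit+ progenitors of fetal liver from Ebf1-/- mice of the C57Bl/6 strain, plated on OP9 feeder cells, a mouse stromal line. Interleukin 7 (5 ng/ml) was supplied together with stem cell factor and Flt3 ligand (both at 10 ng/ml). Every group therefore lacked endogenous EBF1, a transcription factor of the B-lymphocyte lineage, and every group was transduced with a pMys retrovirus that also carried GFP; no untransduced group was analysed here. The virus held GFP alone (Empty, 2 arrays), wild-type EBF1 (EBF1wt, 3 arrays) or EBF1-H240A (3 arrays), a form with an amino-acid substitution. GFP+ cells were sorted after 36 h. The age of the fetuses and whether replicates were separate animals or cultures are not given in the labels. The p-values therefore reflect only how far these samples spread, and that spread may be technical. In bulk RNA a larger share of responding cells and more RNA per cell cannot be told apart.

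As background, type I and type III interferons act through receptors whose kinases activate a complex, with STAT2 and IRF9 among its subunits, that binds the interferon-stimulated response element of ISG promoters, while interferon gamma acts at the gamma-activated site. The products sense viral RNA (RIG-I-like receptors), block viral translation (IFIT proteins), degrade RNA (oligoadenylate synthetases with RNase L), modify proteins (ISG15) or hold back membrane fusion and release (IFITM proteins, tetherin). Many ISGs also have a basal level without infection, set by tonic interferon signalling or by interferon regulatory factors.

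RefSeq promoter windows (assembly GRCm38.p6, 250 bases before to 50 bases after the annotated start) were listed for 36 of the 47 members. A response element was searched as GAAA and GAAA with any 2 bases between them, a gamma-activated site as TTCNNNGAA and the EBF core as CCCNNGGG, each on both strands. Of the 36 members, 17 (47.2%) held the response element, against 3.99% of the 27025 genes with a window. TTCNNNGAA was held by 9 members (25%, against 9.55% of genes), and CCCNNGGG by 5 (13.9%, against 15.4%). Letters that match are a description and no measurement of binding. The stretches below are those of the 6 largest responders among the members whose window held a match, because they carry the element that the list has most in common. They run 5′ to 3′ on the gene's strand with the response element matches in capitals (they read TTTC and TTTC where the match is on the opposite strand).
Ifit3, chr19:34583348-34583441, plus strand: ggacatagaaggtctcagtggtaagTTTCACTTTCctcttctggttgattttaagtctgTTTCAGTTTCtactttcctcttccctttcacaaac
Ifit1, chr19:34640760-34640838, plus strand: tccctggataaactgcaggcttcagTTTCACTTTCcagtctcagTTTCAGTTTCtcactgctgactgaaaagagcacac
Rsad2, chr12:26456538-26456597, minus strand: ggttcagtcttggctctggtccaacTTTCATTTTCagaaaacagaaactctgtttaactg
Gbp2, chr3:142620579-142620638, plus strand: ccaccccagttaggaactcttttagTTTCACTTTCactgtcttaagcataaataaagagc
Oas3, chr5:120777700-120777759, minus strand: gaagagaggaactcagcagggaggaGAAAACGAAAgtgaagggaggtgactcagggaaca
Irgm1, chr11:48871421-48871475, minus strand: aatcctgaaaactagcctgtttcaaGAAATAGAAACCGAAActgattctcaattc
Ifit3 and Ifit1 each held 2 separate matches, and in Irgm1 2 matches overlapped. The window of Irf1, a transcription factor of the family, was added after its values were seen, because it was the only member that passed the test between the 2 EBF1 proteins. It held no response element match. Its capitals mark 2 CCCNNGGG matches followed by 1 TTCNNNGAA match.
Irf1, chr11:53769811-53769957, plus strand: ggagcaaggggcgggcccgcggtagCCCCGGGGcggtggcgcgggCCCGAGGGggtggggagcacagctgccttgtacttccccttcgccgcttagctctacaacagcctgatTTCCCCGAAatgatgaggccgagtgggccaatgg
The matches lay at 156 and 122 bases upstream of the start in Ifit3 and at 59 bases upstream in Gbp2, counted at the first base of the match. In Irf1 they lay at 178, 158 and 90 bases upstream.

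**Figure D1:**
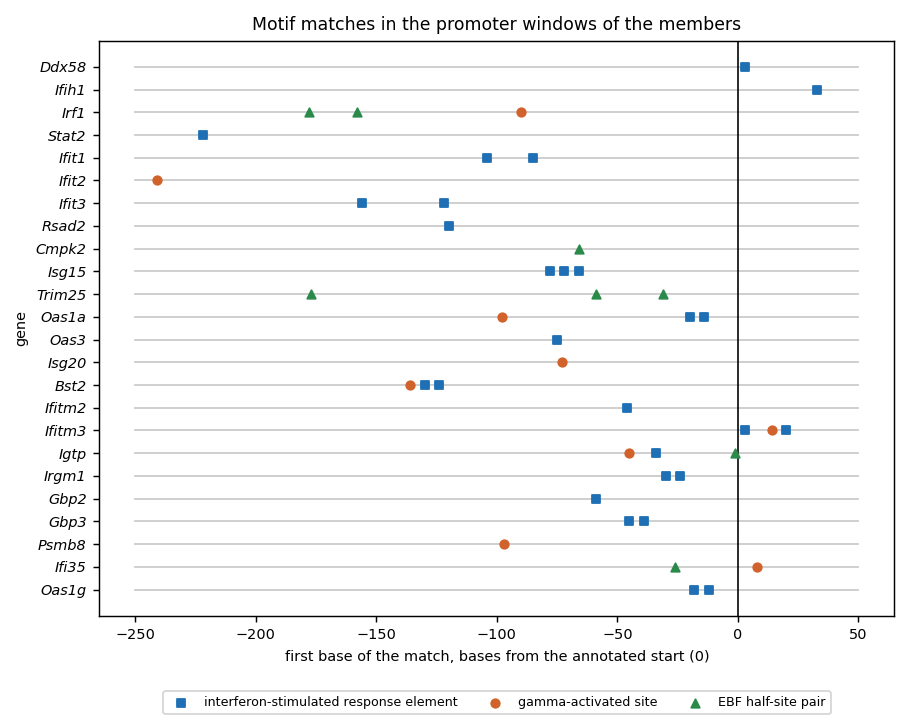
Motif matches in the promoter windows of members with at least 1 match. Each grey line is the window from 250 bases before to 50 bases after the annotated start (x axis, bases), squares are response element matches (GAAA, 2 bases, GAAA), circles TTCNNNGAA and triangles CCCNNGGG; squares stand on 17 of the lines and triangles on 5.

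Probes well above background made up 54.6% to 59.6% of each array, no spot was saturated, and arrays of a group correlated at r = 0.991 to 0.995 across genes. The Ebf1 probe read 10.10 to 10.44 on all arrays on the log2 scale and did not pass the test in any comparison. Its relation to the deleted part and to the viral insert is not given, so it checks no label. Of 8 tested EBF1 targets, 8 were called higher with EBF1wt and 6 with EBF1-H240A, against 17.2% and 21.6% of all genes. Among them was Igll1, a surrogate light chain of the pre-B cell receptor (log2 differences of 11.62 and 10.07). The median log2 signal of the targets was 3.19 and 3.32 on the Empty arrays, near the limit of detection. A target may thus have passed the filter on dim probes only through the EBF1 arrays, so these values are a description. The progenitor markers Kit, Cd34 and Ptprc were well above background on all arrays; 7 of 9 hepatocyte markers on the array, albumin among them, were not above background on any.

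The first question was what wild-type EBF1 did to the ISGs. With EBF1wt, 31 of the 45 tested members were higher than with Empty, 0 were lower and 14 did not pass (limma, with the Benjamini-Hochberg adjustment made over the whole array and a threshold of 0.05). At an unadjusted p under 0.05, 1 member (Oasl2) was lower. In the same comparison 17.2% of all genes were called higher, 21.3% lower and 38.4% in either direction. The members' median log2 difference was 0.54, against -0.04 over all genes, and the range was -0.29 to 2.03. Of the called members, 6 differed by at least 2-fold, a share that was not counted over all genes. In 36 members the EBF1wt arrays all lay above both Empty arrays, as they did in 26.5% of all genes. The largest rises were those of Ifit3 and Ifit1, of a family that holds back the translation of viral RNA, and of Rsad2, which encodes the antiviral radical-SAM enzyme viperin.

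The second question was whether EBF1-H240A did the same. With it, 37 members were higher than with Empty, 0 were lower and 8 did not pass, where 21.6% of all genes were called higher, 23% lower and 44.6% in either direction. At an unadjusted p under 0.05, Oasl2 alone was lower again, 1 member of 45. The members' median log2 difference was 0.62, against -0.00 over all genes, and the range was -0.27 to 2.18. Of the called members, 8 differed by at least 2-fold, again with no count over all genes. In 39 members the EBF1-H240A arrays all lay above both Empty arrays, against 31.5% of all genes. Both comparisons share the 2 Empty arrays. All 31 members called with EBF1wt were also called with EBF1-H240A, and 15.2% of all genes were called higher in each. Irf1, Irf9, Stat2, Igtp, Gbp3 and Parp14 were called with EBF1-H240A and not with EBF1wt. Oas2, Oasl1, Oasl2, Isg20, Ifitm2, Psmb8, Psmb9 and Tap2 passed in neither. In 35 of the 45 members (77.8%) all 6 arrays with an EBF1 protein read above both Empty arrays, which was so for 22.5% of all genes.

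**Figure D2:**
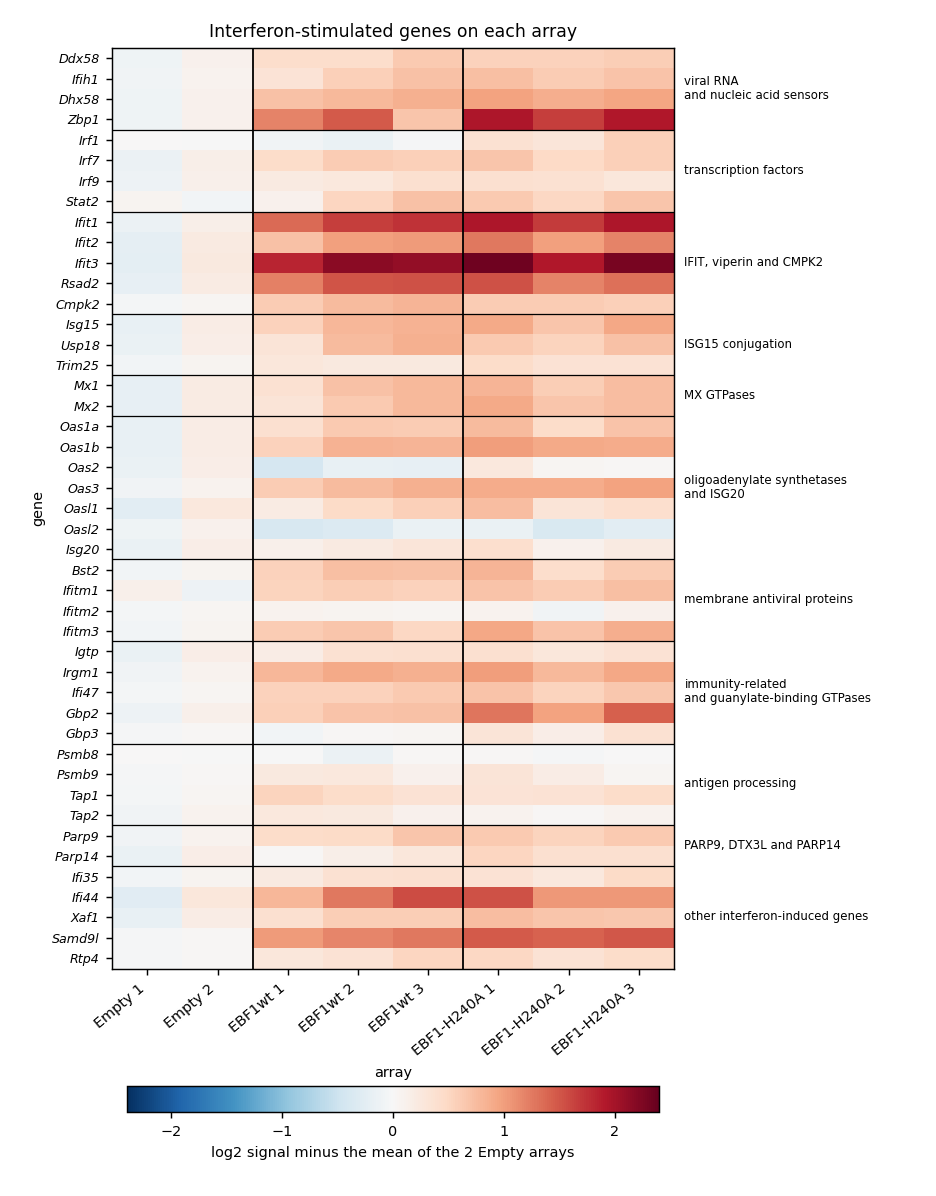
Log2 signal of the 45 tested members on each of the 8 arrays, minus the gene's mean on the 2 Empty arrays (colour; red is higher), with genes in rows grouped by role and arrays in columns grouped by vector. Red fills most of the EBF1wt and EBF1-H240A columns, deepest for Ifit3, Ifit1 and Zbp1, while Oasl2 and the antigen-processing rows other than Tap1 stay pale or blue.

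The slides split the groups, since slide 1 held Empty 1, EBF1wt 2 and EBF1-H240A 1 and 2 and slide 2 held the others. With slide as a block, 30 members were called higher with EBF1wt and 36 with EBF1-H240A. Within slide 1 the members' median difference was 0.72 with EBF1wt and 0.68 with EBF1-H240A, and within slide 2 it was 0.41 and 0.53. All 31 and all 37 called members had a higher value within both slides. This adds no separate support, because all arrays of the group lay above both Empty arrays in each called member. Each slide held a single Empty array, so a slide alone gives only the size of the differences. The 2 Empty arrays were not alike for these genes. Empty 2 read above Empty 1 in 41 of the 45 members, against 42.1% of all genes. Without Empty 1 the members' median difference was 0.42 with EBF1wt and 0.51 with EBF1-H240A, and without Empty 2 it was 0.66 and 0.69. A fit without either of them rests on a single Empty array. Fewer genes were then called over the whole array too, so calls lost in such a fit are not particular to the members.

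Markers of other cells were counted too. Over all genes tested, 17.2% were called higher and 21.3% lower with EBF1wt, and 21.6% and 23% with EBF1-H240A. Of 17 tested stromal markers, which OP9 cells could contribute and a mouse array cannot assign to one cell or the other, 6 were higher with EBF1wt, 9 with EBF1-H240A and 0 were lower. Their summed linear signal was 23820 to 23870 on the Empty arrays, 27140 to 34010 with EBF1wt and 26570 to 28540 with EBF1-H240A; Pdgfra, Lum and Postn were not above background on any array. Of 10 tested macrophage and monocyte markers, 3 were higher and 4 lower with EBF1wt, and 3 were higher and 3 lower with EBF1-H240A. Their summed signal was 110600 to 121700 with Empty, 152700 to 159800 with EBF1wt and 141900 to 154800 with EBF1-H240A, while C1qa and C1qc were not above background. A linear sum follows the brightest genes, and the median log2 differences of these markers were -0.11 and -0.18. Of 8 tested plasmacytoid dendritic cell markers, a cell type that makes much type I interferon, 3 were higher and 4 lower in each comparison, and their summed signal ranged over 64620 to 65500, 87540 to 89760 and 63620 to 71390. Their log2 differences ranged from -1.97 to 1.08 with EBF1wt and from -3.11 to 1.81 with EBF1-H240A. The lowest value in each was that of Siglech, a lectin gene typical of that cell type. Bst2 stands in that list and among the ISGs. Of 7 tested progenitor markers, 1 was higher and 4 were lower with EBF1wt (median -0.79), and 0 were higher and 5 lower with EBF1-H240A (median -1.14). Their summed signal was 43170 to 44830 with Empty, 24640 to 26160 with EBF1wt and 27710 to 28940 with EBF1-H240A. Of 12 tested natural killer and T cell markers, 2 were higher and 6 lower with EBF1wt, and 1 was higher and 7 were lower with EBF1-H240A, with summed signals of 33680 to 35500, 23090 to 26470 and 22730 to 25340. Of 4 tested erythroid markers, 1 was higher and 2 were lower in each comparison, with summed signals of 8282 to 9223, 1200 to 1335 and 834.2 to 922.0. Their log2 differences went both ways, from -3.13 to 6.95 with EBF1wt and from -3.58 to 6.06 with EBF1-H240A. The 2 tested hepatocyte markers were lower in each comparison, with medians of -1.35 and -2.19. The part of any of these cells in the ISG differences was not tested.

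The IFIT genes, Rsad2 and its neighbour Cmpk2, a mitochondrial nucleotide kinase, formed the role group with the largest median difference. All 5 rose in both comparisons, with medians of 1.42 (EBF1wt) and 1.34 (EBF1-H240A). Ifit3 (probe at chr19:34663105-34663164 of mm9) read 9.69 and 10.18 on the Empty arrays, 11.76, 12.09 and 12.05 on the EBF1wt arrays, and 12.26, 11.86 and 12.21 on the EBF1-H240A arrays. Every array with an EBF1 protein lay more than 1 log2 unit above both Empty arrays, and the 2 proteins overlapped. EBF1wt raised the log2 signal by 2.03 ± 0.19 (SE; adjusted p = 0.000324), or 4.10-fold, and EBF1-H240A raised it by 2.18 ± 0.19 (adjusted p = 0.00019), or 4.53-fold. Ifit1 (chr19:34723796-34723855) read 8.52 and 8.79, then 10.01, 10.31 and 10.40, then 10.60, 10.34 and 10.60 in the same order (Empty, EBF1wt, EBF1-H240A, as in all such series of values here), again with no overlap with Empty. It rose by 1.58 ± 0.15 (adjusted p = 0.000324) and 1.86 ± 0.15 (adjusted p = 0.000133). Ifit2 (chr19:34650244-34650303), the third gene of the cluster, read 8.45 and 8.90, then 9.37, 9.65 and 9.70, then 9.94, 9.65 and 9.87. Its Empty arrays were the farthest apart of the 3 IFIT genes relative to the rise, which was 0.90 ± 0.17 (adjusted p = 0.00593) and 1.15 ± 0.17 (adjusted p = 0.00171). Both kept Ifit2 probes moved the same way. Rsad2 (chr12:27127859-27127918) read 9.89 and 10.28, then 11.29, 11.59 and 11.62, then 11.61, 11.27 and 11.40. It rose by 1.42 ± 0.16 (adjusted p = 0.00081) and 1.34 ± 0.16 (adjusted p = 0.000793), on all 3 of its kept probes. Cmpk2, which lies beside Rsad2 on chromosome 12, rose by 0.73 ± 0.08 and 0.60 ± 0.08.

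Sensors of viral nucleic acid rose as well, 4 of 4 in both comparisons. Zbp1 (chr2:173032113-173032170), a sensor of left-handed nucleic acid that can start necroptosis, read 11.55 and 11.77 with Empty, 12.85, 13.14 and 12.34 on the EBF1wt arrays and 13.60, 13.32 and 13.59 on the EBF1-H240A arrays. The 3 groups did not overlap, and the EBF1wt arrays were the most scattered. Zbp1 rose by 1.11 ± 0.23 (adjusted p = 0.00897) and by 1.84 ± 0.23 (adjusted p = 0.000841), and without Empty 1 the EBF1wt call was lost (adjusted p = 0.0616). Dhx58 (chr11:100556271-100556330), which encodes the RIG-I-like receptor LGP2, read 10.37 and 10.57, then 11.17, 11.24 and 11.31, then 11.44, 11.33 and 11.41. It rose by 0.77 ± 0.08 (adjusted p = 0.000586) and 0.93 ± 0.08 (adjusted p = 0.00021). Ddx58, the gene of RIG-I, rose by 0.49 and 0.57, on all 4 of its kept probes, and Ifih1, the gene of MDA5, by 0.53 and 0.67.

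Among the transcription factors, Irf7, which amplifies type I interferon, rose by 0.54 ± 0.11 and 0.58 ± 0.11. Irf9 and Stat2, subunits of the complex that binds the response element, had differences of 0.28 (adjusted p = 0.0577) and 0.44 (adjusted p = 0.0801) with EBF1wt, short of the threshold. With EBF1-H240A they rose by 0.33 (adjusted p = 0.0277) and 0.59 (adjusted p = 0.0264). Irf1 (chr11:53590715-53590774), a factor induced mainly by interferon gamma, read 12.76 and 12.73 with Empty, 12.65, 12.59 and 12.71 on the EBF1wt arrays and 13.11, 13.03 and 13.31 on the EBF1-H240A arrays. All EBF1wt arrays lay slightly below Empty and all EBF1-H240A arrays above it. Against Empty, EBF1wt gave -0.09 ± 0.09 (adjusted p = 0.48) and EBF1-H240A gave 0.40 ± 0.09 (adjusted p = 0.0116). The latter call was lost without Empty 1 (adjusted p = 0.0516) and without Empty 2 (adjusted p = 0.0609).

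ISG15 is a ubiquitin-like protein, USP18 removes it and TRIM25 acts as a ligase for it. All 3 genes rose in both comparisons, Isg15 by 0.73 and 0.84, Usp18 by 0.64 and 0.62 and Trim25 by 0.25 and 0.38. The genes of the MX GTPases rose as well, Mx1 by 0.62 and 0.71 and Mx2 by 0.57 and 0.78.

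The oligoadenylate synthetases split. Of the 7 tested genes of that group, Isg20 included, 3 rose in each comparison and 4 did not pass, although Oas1a, Oas1b, Oas2 and Oas3 are neighbours on chromosome 5. Oas3 (chr5:121203598-121203657), the largest of these enzymes, read 10.08 and 10.25 with Empty, then 10.77, 10.91 and 11.02, then 11.05, 11.06 and 11.12, with no overlap. It rose by 0.74 ± 0.09 (adjusted p = 0.00109) and 0.91 ± 0.09 (adjusted p = 0.000354). Oas1b (chr5:121271358-121271412) read 6.15 and 6.51, then 6.88, 7.16 and 7.14, then 7.34, 7.24 and 7.22. Again the Empty arrays lay lowest, and it rose by 0.73 ± 0.13 (adjusted p = 0.00503) and 0.94 ± 0.13 (adjusted p = 0.00142). The Oas1 genes are close paralogs, so a probe of one may also hybridise another. Oas2, by contrast, read 10.86 and 11.18 with Empty, then 10.62, 10.85 and 10.82, then 11.27, 11.07 and 11.05. Neither -0.26 for EBF1wt (adjusted p = 0.151) nor 0.11 for EBF1-H240A (adjusted p = 0.516) passed. Oasl2, an OAS-like protein, had the lowest difference among the members, at -0.29 (adjusted p = 0.0662) and -0.27 (adjusted p = 0.0796). Oasl1, which restrains IRF7 translation, had differences of 0.41 and 0.49, and Isg20, an RNA exonuclease, 0.21 and 0.24; neither passed.

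The genes of membrane proteins mostly rose. Bst2, the gene of tetherin, which holds budding virus at the cell surface, rose by 0.66 and 0.62, Ifitm1 by 0.56 and 0.67 and Ifitm3, which blocks viral entry from endosomes, by 0.59 and 0.83. Ifitm2, a close paralog in the same cluster on chromosome 7, had differences of 0.06 (adjusted p = 0.548) and 0.03 (adjusted p = 0.771). Among the GTPases that attack vacuoles of intracellular pathogens, 3 of 5 rose with EBF1wt and 5 of 5 with EBF1-H240A. Irgm1 (chr11:48679069-48679128) read 12.49 and 12.67 with Empty, then 13.38, 13.50 and 13.43, then 13.59, 13.35 and 13.51. The 2 proteins overlapped and both lay above Empty, by 0.85 ± 0.09 (adjusted p = 0.00066) and 0.90 ± 0.09 (adjusted p = 0.000408). Gbp2 (chr3:142300719-142300778) read 10.19 and 10.45, then 10.89, 11.01 and 11.02, then 11.59, 11.29 and 11.75, so that the 3 groups stood in separate ranges. It rose by 0.65 ± 0.15 (adjusted p = 0.0125) and 1.23 ± 0.15 (adjusted p = 0.00071), and the EBF1wt call was lost without Empty 1 (adjusted p = 0.0851). Gbp3, its neighbour, differed by 0.01 (adjusted p = 0.962) with EBF1wt and rose by 0.28 (adjusted p = 0.0269) with EBF1-H240A. Ifi47 rose by 0.58 and 0.62, and Igtp by 0.34 with EBF1-H240A (0.31 with EBF1wt, adjusted p = 0.0689).

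The antigen-processing genes had the lowest median of the role groups (0.20 with EBF1wt and 0.13 with EBF1-H240A). Psmb9, Tap1, Psmb8 and Tap2 lie together on chromosome 17 and serve peptide supply to MHC class I, as immunoproteasome subunits and as the subunits of the peptide transporter. Tap1 rose by 0.44 ± 0.08 (adjusted p = 0.00479) and 0.37 ± 0.08 (adjusted p = 0.00772), and the other 3 passed in neither comparison. Psmb8 had differences of -0.04 and 0.00, with 95% intervals of -0.21 to 0.13 and -0.17 to 0.17. Its 2 kept probes differed in sign with EBF1wt. Parp9, an antiviral ADP-ribosyltransferase family member, rose by 0.53 and 0.60, and Parp14 by 0.43 with EBF1-H240A (0.15 with EBF1wt, adjusted p = 0.366).

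The remaining 5 members rose in both comparisons. Samd9l (chr6:3323316-3323375), a growth-restraining antiviral factor, read 10.04 and 10.10 with Empty, then 11.10, 11.24 and 11.33, then 11.55, 11.49 and 11.56. Its replicates were tight and its 3 groups apart, and the rises of 1.15 ± 0.08 (adjusted p = 8.43e-05) and 1.46 ± 0.08 (adjusted p = 2.42e-05) had the smallest adjusted p among the members. Ifi44 (chr3:151394035-151394094) read 4.43 and 4.96, then 5.50, 5.96 and 6.26, then 6.22, 5.73 and 5.73. This dim probe scattered most, with a rise of 1.21 ± 0.28 (adjusted p = 0.0133) and 1.20 ± 0.28 (adjusted p = 0.0117), and both calls were lost without Empty 1 (adjusted p = 0.0902 and 0.0809). Xaf1, a pro-apoptotic factor, rose by 0.52 and 0.69, Rtp4, a receptor chaperone, by 0.38 and 0.43 and Ifi35 by 0.32 and 0.35.

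**Figure D3:**
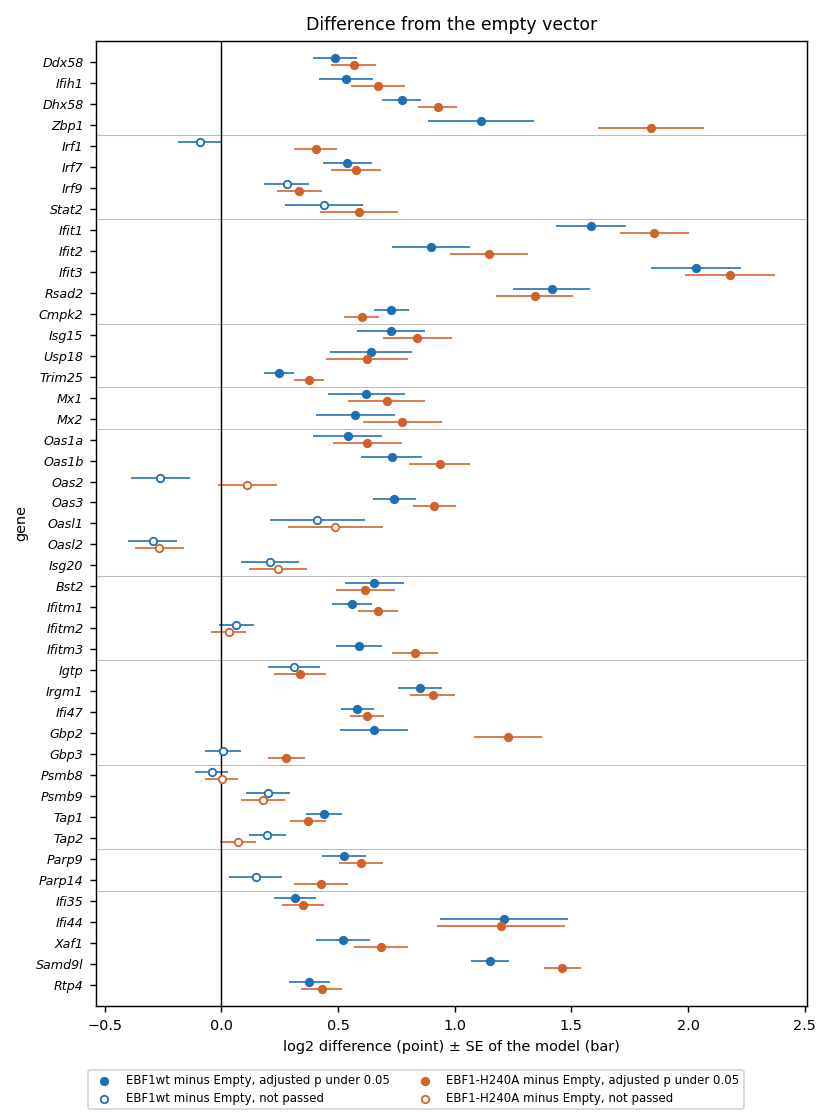
Log2 difference from Empty (x axis; point, with the model's SE as a bar) for each of the 45 tested members (y axis, by role), in blue for EBF1wt and orange for EBF1-H240A. Filled points passed the adjusted p of 0.05 (31 in blue, 37 in orange) and open points did not; all points left of 0 are open.

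Within groups the members moved together. EBF1wt 1 was the lowest of its 3 arrays in 36 of the 45 members (31% of all genes), and EBF1-H240A 2 was the lowest of its 3 in 35 (35.6% of all genes). The median deviation of the members from their 8-array mean was -0.54 and -0.31 on the Empty arrays, -0.02, 0.13 and 0.18 on the EBF1wt arrays and 0.26, 0.11 and 0.21 on the EBF1-H240A arrays. Every EBF1 array thus lay above both Empty arrays in the median, while the median deviation over all genes stayed between -0.02 and 0.05.

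Whether the 2 proteins differed was tested directly. Only Irf1 passed among the 45 members, higher by 0.50 ± 0.08 with EBF1-H240A than with EBF1wt (adjusted p = 0.0198), and 44 did not pass. At an unadjusted p under 0.05, 8 members were higher with EBF1-H240A and 0 were lower. In 14 members the EBF1-H240A arrays all lay above the EBF1wt arrays, as they did in 17% of all genes. Of all genes, 3.64% were called higher, 2.72% lower and 6.36% in either direction. The members' median difference was 0.08, against 0.02 over all genes. Of the 45 estimates, 36 were above 0, a share that was not counted over all genes. The Irf1 call was lost with no filter on dim probes and without EBF1wt 1, EBF1wt 2 or EBF1-H240A 1, where the adjusted p was 0.0633 to 0.0758. Zbp1 (0.73, 95% interval 0.24 to 1.21, adjusted p = 0.0885), Gbp2 (0.57, 0.26 to 0.88, adjusted p = 0.0517) and Samd9l (0.31, 0.14 to 0.48, adjusted p = 0.053) had the next largest or best supported values without passing. Under other settings some of them passed: Gbp2 and Zbp1 with another background correction, and Gbp2 and Samd9l when only probes above background on all 8 arrays were tested. The unadjusted 95% intervals of the 45 members reached from -0.60 to 1.21, with a median half-width of 0.22. For Ifit3 the interval of -0.26 to 0.55 and for Rsad2 that of -0.42 to 0.28 included 0, which does not show that the 2 proteins acted alike.

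**Figure D4:**
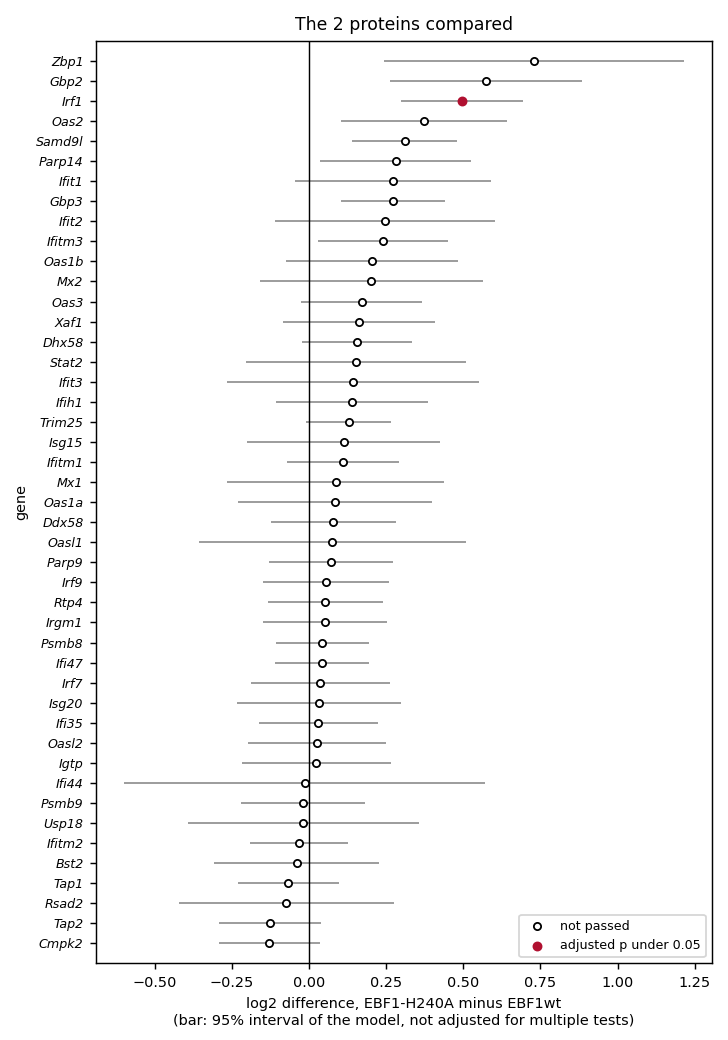
Log2 difference between EBF1-H240A and EBF1wt (x axis; point) for the 45 tested members (y axis, sorted by size), with unadjusted 95% intervals as bars. The filled point is Irf1 at 0.50, the single member that passed; most other intervals cross 0, and Zbp1 at 0.73 lies farthest right.

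Genes of the interferon pathway outside the members, 70 listed and 55 tested, were counted next. With EBF1wt, 10 were higher and 12 lower, and with EBF1-H240A 20 were higher and 11 lower, with medians of 0.05 and 0.19. Both counts of higher genes include Ifnl3, whose call carries no weight here for the reason given below. Over all genes tested, 17.2% were higher and 21.3% lower with EBF1wt, a share that the pathway counts do not stand apart from, and 21.6% were higher and 23% lower with EBF1-H240A. Among the ligands, Ifnb1, Ifna4, Ifne and Ifnk were not above background on any array. The probe of Ifnl3, a type III interferon gene whose near-identical copy Ifnl2 had no probe of its own, was not well above background on the 2 Empty arrays (1.91 and 1.55). It read 4.98, 5.22 and 5.03 on the EBF1wt arrays and 5.34, 5.42 and 5.58 on the EBF1-H240A arrays, and was well above background on all 6. This is at least 6.02-fold and at least 7.81-fold higher, where each bound sets the mean of the bright group against the lowest signal well above background on each Empty array. The probe passed the filter on dim probes only through the 2 groups where it was bright, so these bounds are given as a description with no p-value. Ifng, the type II interferon gene, read 6.94 and 7.12, then 6.34, 6.20 and 6.08, then 6.45, 6.34 and 6.65. It was lower by -0.82 ± 0.12 (adjusted p = 0.00214) and -0.55 ± 0.12 (adjusted p = 0.00952), and the second call was lost without Empty 2 (adjusted p = 0.0668). Of the 6 tested interferon alpha genes, which are close copies of each other, only Ifna2 passed, by 0.59 and 0.40 at signals of 2.81 to 3.57, near the limit of detection.

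Of 5 tested receptor genes, 2 rose and 2 fell in each comparison. Ifnar1, a chain of the type I receptor, rose by 0.59 ± 0.11 and 0.80 ± 0.11, and Ifngr2, of the type II receptor, by 0.82 ± 0.11 and 0.98 ± 0.11. Ifngr1 fell by 0.38 and by 0.33, and Il10rb, a chain shared by the type III and interleukin 10 receptors, fell by 0.69 and by 0.70. Ifnlr1, the specific chain of the type III receptor, was above background on only 1 of 8 arrays and was not tested. Among the kinases and signal transducers, Stat3 had a difference of 0.27 (adjusted p = 0.0932) with EBF1wt and rose by 0.47 (adjusted p = 0.0117) with EBF1-H240A, a call lost without Empty 2 (adjusted p = 0.0791).

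Of 15 tested genes that lead to interferon production, 2 rose and 3 fell with EBF1wt, and 7 rose and 2 fell with EBF1-H240A. Cgas, the cytosolic DNA sensor, fell by 0.88 and by 0.89 (adjusted p = 0.000521 and 0.000392), and Sting1, the adaptor it signals through, fell by 0.88 and by 0.70 (adjusted p = 0.00026 and 0.000554). Ticam1, the adaptor of Toll-like receptor 3, rose by 0.64 and 0.83. Of the other interferon regulatory factors, Irf8, which serves myeloid and dendritic cells, fell by 0.78 and by 0.85. Of 12 inhibitors of the pathway, 2 rose and 4 fell with EBF1wt and 3 rose and 3 fell with EBF1-H240A. Socs1, which blocks the receptor kinases, fell by 0.96 and by 0.95 (adjusted p = 0.00111 and 0.000937). Socs3, better known as a brake on STAT3, read 11.82 and 11.83 with Empty, then 13.53, 13.39 and 13.17, then 13.76, 13.62 and 13.63. Its rise was 1.54 ± 0.11 (adjusted p = 9.52e-05) and 1.84 ± 0.11 (adjusted p = 3.36e-05), although only 1 of its 2 kept probes rose with EBF1wt. Between the proteins, 2 of the 55 pathway genes passed, both higher with EBF1-H240A. This is 3.64%, the same share as that of all genes called higher (3.64%), so the count does not set the pathway apart. The 2 were Ikbke, a kinase that activates IRF3 and IRF7 (0.42 ± 0.08, adjusted p = 0.0277), and Traf3, an adaptor on the same route (0.41 ± 0.09, adjusted p = 0.041).

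**Figure D5:**
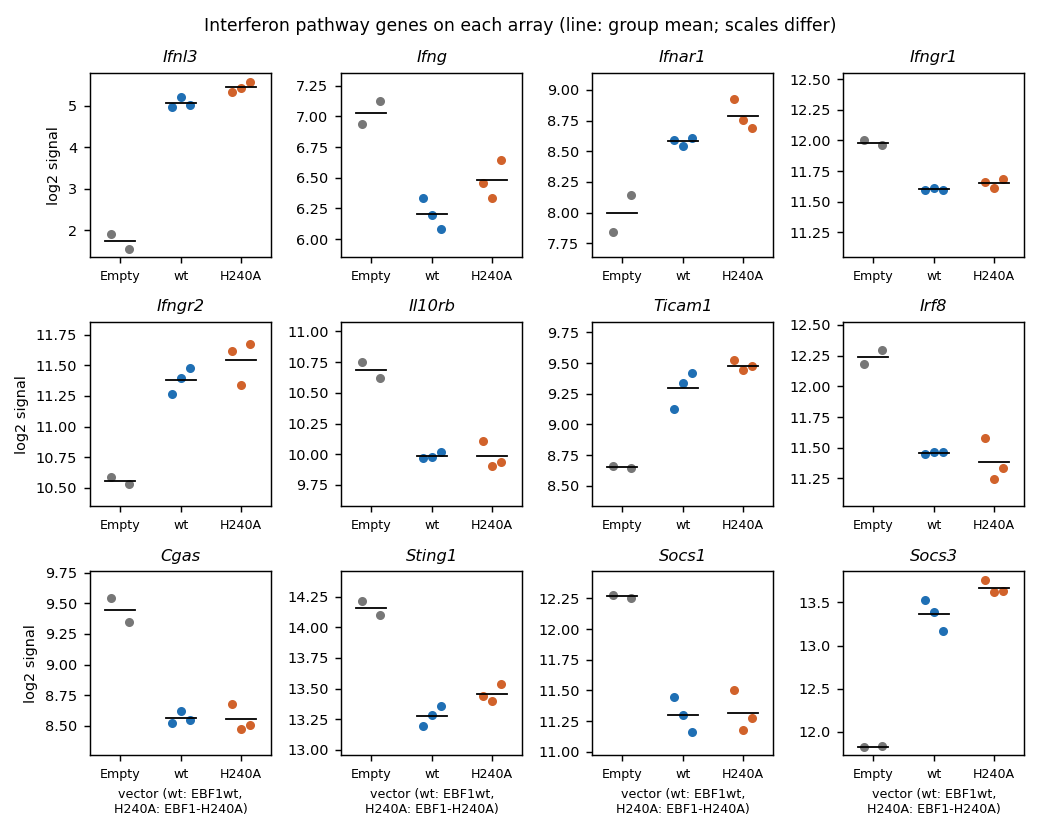
Log2 signal (y axis, scales differ between panels) of 12 interferon pathway genes on each array, by vector (x axis), with points for arrays and a line for the group mean. Ifnl3, Ifnar1, Ifngr2, Ticam1 and Socs3 lie higher in both EBF1 groups and Ifng, Ifngr1, Il10rb, Irf8, Cgas, Sting1 and Socs1 lower; the 2 Empty points of Ifnl3 are not well above background.

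The members were also set against the promoter letters. Of the members tested, 16 held the response element in the window and 18 had a window without it. With EBF1wt, 12 of the 16 and 11 of the 18 were called higher, with medians of 0.62 and 0.43. With EBF1-H240A it was 15 of the 16 and 13 of the 18, with medians of 0.75 and 0.45. Ifitm2 held a match and passed in neither comparison, while Irf7 and Ifit2, without one in the window, rose in both. The 5 members with CCCNNGGG (Irf1, Cmpk2, Trim25, Igtp and Ifi35) had medians of 0.31 and 0.38, with 3 and 5 called higher, against 0.54 and 0.63, with 20 and 23 called higher, for the 29 tested members with a window without it. For TTCNNNGAA, the 9 tested members with a match had medians of 0.32 and 0.40 (5 and 7 called higher), and the 25 without one had 0.54 and 0.62 (18 and 21 called higher). These counts carry no test, and the members without a RefSeq window (Dhx58, Zbp1, Usp18, Mx1, Mx2, Oas1b, Oas2, Tap2, Parp9, Parp14 and Rtp4) are in none of them.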

How the data were processed

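The 8 samples were each hybridised to a one-colour Agilent array. According to the submitters' processing notes, Agilent Feature Extraction 10.5.1.1 made the scanner output. The processed signal is an intensity on a linear scale, already corrected by that software, per the file headers, which also give mean and background intensities, flags (0 or 1, a score of each spot) and mm9 positions. The deposited value table holds log2 values; how they were normalized is not stated. Its column medians were 4.90 to 4.93 and its columns correlated at r = 0.971 to 0.979 with the scanner values of the same array; its centring is not stated, and it served as an alternative only.

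The intensities of 43379 non-control spots were scaled to a common 75th percentile (before scaling 232 to 326), floored at 1 and put on the log2 scale. Outlier spots were dropped and spots of a probe averaged (41174 probes). Probes well above background on at least 2 of 8 arrays were kept (25007, of which 24 lacked a value on some array and were left out), and the brightest kept probe stood for a gene (16309 genes, 5958 with several probes). Names came from RefSeq (GRCm38.p6): 27816 probes matched by accession, 5503 by symbol and 380 by synonym, and 7475 kept the file's name. Probe positions are those of mm9, and promoter positions those of GRCm38.p6.

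Groups were compared in R 4.3.3 with limma 3.58.1 (lmFit, eBayes, two-sided, all 8 arrays, no covariate, 5 residual degrees of freedom), Benjamini-Hochberg adjusted over all genes, with a threshold of 0.05. The procedure was tested on simulated data. A group with a probe below that flag on all its arrays gives only an "at least" bound. The number of arrays limits the precision. Members given with all array values were the 12 with the largest difference from Empty among those called, and those called between the proteins; Oas2 was added after its values were seen; other named pathway genes followed a like rule or were named as counts of 5 or fewer, except Ifngr1, added after its values were seen. The members, lists and rules were chosen with earlier results of these data known. Alternatives were the background correction, quantile normalization, the filter on dim probes, the deposited value table, the mean over probes, the slide, the replicate number, the arrays in the fit and leaving out each array; centring on the median of all genes was added after seeing the data.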

Additional observations from a re-analysis of the deposited data

How the results depend on the processing

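Under the 15 alternatives other than a single slide, centring on the median of all genes included, 17 members stayed called higher with EBF1wt in every one, among them Ifit1, Ifit2, Ifit3, Rsad2, Oas3, Irgm1 and Samd9l, and 20 with EBF1-H240A. For EBF1wt, 31 members were called higher; a single slide left 0 and 0, and leaving out 1 array gave 18 to 31. Oasl2 alone was called lower, 1 member in place of 0, with normexp background correction, with probes above background on all 8 arrays and without EBF1wt 3 (0 to 1 over the arrays left out). The median of 0.54 became 0.72 on slide 1 and 0.41 on slide 2, and 0.42 (without Empty 1) to 0.66 (without Empty 2) with 1 array left out. For EBF1-H240A the 37 calls became 6 on slide 1, 0 on slide 2 and 23 to 35 with 1 array left out. Between the proteins, the 1 call became 3 with normexp, 3 with probes above background on all arrays, 2 with the deposited value table, 0 with no filter, 0 on either slide and 0 to 2 with 1 array left out. With the replicate block, 24, 31 and 1 members were called higher and Ifi44 lost its EBF1wt call (adjusted p = 0.0535); deviations of arrays with the same number correlated at -0.33 to 0.19, so the numbers were not taken as pairs. Over all genes, calls with EBF1wt fell from 6264 to 133 and 398 within slides, and with EBF1-H240A from 7274 to 1096 and 322. Between the proteins they fell from 1038 to 338 with no filter, 646 with the slide block, 360 with the replicate block, 652 with the value table, 0 within either slide, and 365 to 839 with 1 array left out. A slide alone has 1 residual degree of freedom, which limits its calls. The cause of the other changes was not tested. No value changed sign while called. Signals near background, such as those of Ifna2 and Ifi44, limit precision.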

Other observations

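A further 80 interferon-induced genes outside the members were listed, and 72 were tested. With EBF1wt, 44 were higher and 3 lower, with a median log2 difference of 0.38, and with EBF1-H240A 54 were higher and 2 lower, with a median of 0.52; 17.2% and 21.6% of all genes were called higher in these comparisons, which share the Empty arrays. The chemokine gene Cxcl10, which attracts CXCR3-bearing T cells, rose by 1.42 and 1.34, and Ccl5 by 1.07 and 1.12, while Cxcl9 and Cxcl11 were not above background on any array. Nlrc5, the transactivator of MHC class I genes, rose by 1.21 and 0.93, with smaller rises of H2-K1 (0.46 and 0.53) and Tapbp (0.36 and 0.54), whereas B2m, with 0.22 and 0.26, did not pass. Uba7 and Ube2l6, the activating and conjugating enzymes for ISG15, rose by 0.70 and 0.90 and by 0.79 and 0.78. Of the Schlafen genes, Slfn4 rose by 1.38 and 1.64 and Slfn5 by 0.52 and 0.84; both Slfn4 calls were lost without Empty 1 (adjusted p = 0.144 and 0.07), and the EBF1wt call also with no filter on dim probes, with the replicate block and without EBF1wt 2 or EBF1wt 3 (adjusted p = 0.0541 to 0.0767). Plscr1 and Lap3 were lower in both comparisons, at -0.62 and -0.44 and at -0.40 and -0.38, and Ifi27 with EBF1wt (-0.63).

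Ifi30, which encodes the lysosomal thiol reductase GILT, was the only gene of this list that passed between the proteins. That is 1.39% of the 72 tested, below the 3.64% of all genes called higher there. Ifi30 was higher by 0.84 with EBF1-H240A than with EBF1wt (adjusted p = 0.0077). It rose over Empty by 1.11 with EBF1-H240A, against 0.27 (adjusted p = 0.1) with EBF1wt. Apart from Cxcl10 and Slfn4, the genes named in both paragraphs were singled out after their values were seen.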
